A study of Mus musculus with 2 samples.

Results

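The miR-379 to miR-410 cluster was described in 2 microRNA-seq libraries of mouse cortex as 36 of the 2202 microRNA genes counted. Its members were the plus-strand microRNA genes with Mir symbols in GENCODE M21 from Mir379 to Mir410, at chromosome 12, 109709060 to 109743795 (mm10), a span of 34736 bases. The interval searched ran on to the end of Mir3072, at 109747960. It also holds Mir453 and the gene model Gm27379. Mir453 and Mir3072 were not listed as members, and Gm27379 has no Mir symbol. Both libraries were made from left cerebral cortex. The mice were males of the strain B6CASTF1/J, hybrids of C57BL/6J and CAST parents, aged 36 days. The RNA is labelled with a size range below 30 bases. The animals are numbered 3 (replicate 1) and 4 (replicate 2), although both samples carry the same donor identifier. No treatment, mutation or second condition is labelled, so the libraries form 1 group and the only comparison is between them. The tissue was whole cortex, so a level is an average over cell types, and fewer cells of a type cannot be told apart from less RNA per cell.

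MicroRNAs are short RNAs, cut from the hairpins of longer transcripts, which guide Argonaute proteins to partly matching messenger RNAs and repress them. Bases 2 to 8 of the mature microRNA, the seed, make most of the target pairing. The genes of this cluster lie in the imprinted Dlk1-Dio3 domain, are transcribed in one direction from the maternally inherited chromosome, and are known for their activity in brain. Several members have been studied in dendrites and synapses, miR-134 among them as a regulator of dendritic spine size.

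The mature sequences below are those of the 5 most abundant members, which together held most of the cluster's reads, and of Mir134, the member with the largest ratio above 0 between the libraries. All were taken from RefSeq (GRCm38.p6) and lie on the plus strand of chromosome 12. They are written 5′ to 3′, with the seed in capitals. For Mir487b only the 5p arm was listed there.
miR-382-5p: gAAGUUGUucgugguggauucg
miR-382-3p: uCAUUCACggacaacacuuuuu
miR-541-5p: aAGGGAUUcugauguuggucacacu
miR-541-3p: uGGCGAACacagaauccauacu
miR-487b-5p: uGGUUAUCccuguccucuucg
miR-411-5p: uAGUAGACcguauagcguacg
miR-411-3p: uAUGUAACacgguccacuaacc
miR-379-5p: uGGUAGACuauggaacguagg
miR-379-3p: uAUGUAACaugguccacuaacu
miR-134-5p: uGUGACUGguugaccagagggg
miR-134-3p: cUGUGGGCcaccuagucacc
The reads of both arms of a hairpin were counted together, so the counts do not show which arm was present. The 3p arms of Mir411 and Mir379, neighbours at the start of the cluster, have the same seed.

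The cluster was a large part of the reads assigned to microRNA genes, which leave out multi-mapped reads. It held 270731 of 4273791 own-strand counts in replicate 1, a share of 6.33% (exact 95% binomial interval 6.31 to 6.36). In replicate 2 it held 234085 of 4010274, a share of 5.84% (5.81 to 5.86). The mean share was 6.09% ± 0.352 (SD, n = 2), and the intervals, which cover counting error only, did not overlap. On the scale of counts per 1000000 own-strand counts (CPM) the sums were 63347 and 58371. A count of 0 allows a level of up to 0.702 and 0.748 CPM in replicates 1 and 2.

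Most members were present. Of the 36 members, 32 reached 10 CPM or more in both libraries, the level called detected here, against 13.6% of all 2202 genes. At 1000 CPM or more in both libraries stood 10 of the 36, against 3.91% of all genes. The median member had a mean of 398 CPM (438 in replicate 1 and 317 in replicate 2), while the median of the 782 genes with any count was 4.11 CPM. Among detected genes alone, the median was 634 CPM for the members and 325 CPM for all 300. By mean level, 12 members stood at 1000 CPM or more, 15 between 100 and 1000, 5 between 10 and 100, and 4 below 10. No length scaling was applied, since each read stands for 1 short RNA.

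**Figure D1:**
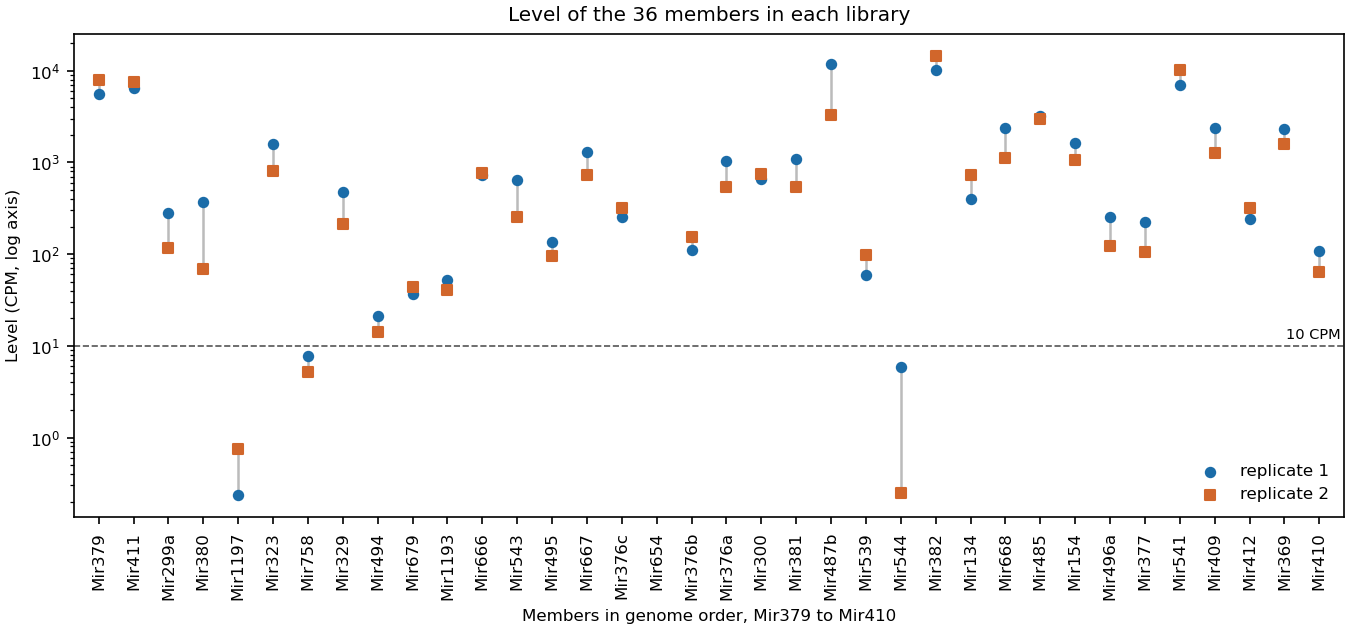
CPM (log axis) of each member in genome order, with each library's value as a point and a line joining the points of a member. Mir382 had the highest mean, 12387 CPM, while Mir1197, Mir758, Mir544 and Mir654 had means below 10 CPM, the last with no count.

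A few members took most of the reads. Mir382 stood at 10200 and 14575 CPM in replicates 1 and 2, a mean of 12387 ± 3093 CPM (SD, n = 2), rank 15 among all microRNA genes. It lies at 109733771 to 109733846, and 2 of its bases overlap an exon of the host transcript Mirg. Mir541 (109742409 to 109742498), in an intron of Mirg, stood at 7052 and 10188 CPM. Both were higher in replicate 2 by similar ratios. Mir487b (109727333 to 109727414), which lies upstream of Mirg, stood at 11985 and 3327 CPM in replicates 1 and 2. It was the most abundant member in replicate 1 and stood below Mir382, Mir541, Mir379 and Mir411 in replicate 2. Mir411 (109710175 to 109710256) stood at 6518 and 7540 CPM, and Mir379 (109709060 to 109709125), the first gene of the cluster, at 5610 and 7832 CPM. The mean levels of Mir487b, Mir411 and Mir379 were 7656 ± 6122, 7029 ± 723 and 6721 ± 1572 CPM (SD, n = 2). Mir487b stood above both others in replicate 1 and below both in replicate 2, so the means do not rank these genes. The 5 genes held 65.3% of the cluster's counts in replicate 1 and 74.5% in replicate 2, and the 10 with the highest means held 84.1% and 88.2%.

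**Figure D2:**
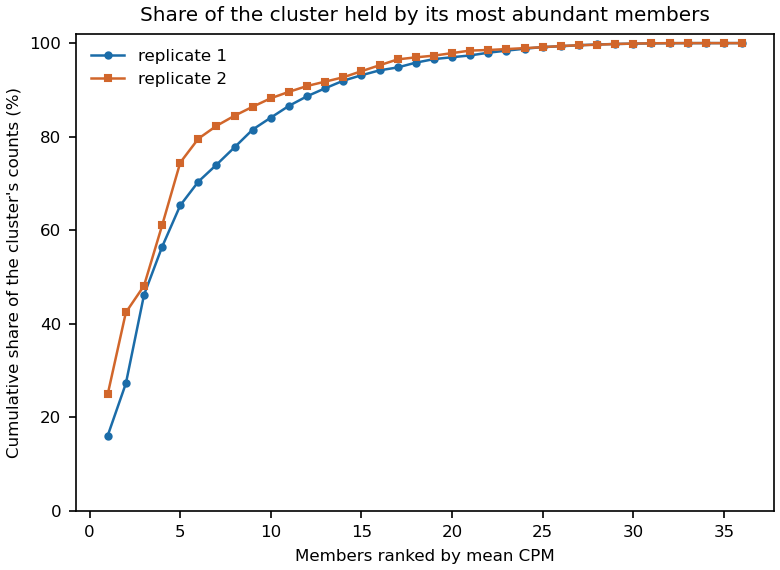
Share of the cluster's own-strand counts (percent) held by its most abundant members, added in order of mean CPM, with a line for each library. The 3 highest members held 46.2% in replicate 1 and 48.1% in replicate 2.

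After a gap the order continued with Mir485, which acts at synapses by repressing the presynaptic protein SV2A. It stood at 3221 and 2982 CPM (3102 ± 169, SD, n = 2), nearly level between libraries. Mir369 stood at 2288 and 1600 CPM, Mir409 at 2370 and 1268 CPM, and Mir668 at 2397 and 1121 CPM. Their means were 1944 ± 486, 1819 ± 779 and 1759 ± 902 CPM (SD, n = 2). Mir668 stood above Mir409 and Mir369 in replicate 1 and below both in replicate 2. Mir154 stood at 1615 and 1060 CPM, Mir323 at 1596 and 797 CPM, and Mir667 at 1298 and 730 CPM. All 6 genes from Mir369 to Mir667 in this order were higher in replicate 1.

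The 6 members listed for dendrites, synapses or neuronal activity (Mir134, Mir329, Mir381, Mir485, Mir495 and Mir379) were all detected. Their summed level was 10924 and 12399 CPM in replicates 1 and 2 (11662 ± 1044, SD, n = 2), of which Mir379 gave the most. Mir134 (109734139 to 109734209, in an exon of Mirg), which limits dendritic spine size by repressing Limk1, stood at 397 and 732 CPM and was higher in replicate 2. Mir329 and Mir381, which are induced with miR-134 through Mef2 during activity-dependent dendritic growth, were higher in replicate 1. Mir329 stood at 479 and 212 CPM, and Mir381 at 1082 and 545 CPM. Mir495, which targets Bdnf, stood at 134 and 95.8 CPM.

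The 3 members of the miR-376 family, whose precursors are known substrates of A-to-I RNA editing, summed to 1392 and 1013 CPM in replicates 1 and 2. Mir376a stood at 1025 and 541 CPM, while Mir376b stood at 112 and 154 CPM and Mir376c at 255 and 318 CPM. Mir376a was thus higher in replicate 1 and both relatives in replicate 2. Mir376b and Mir376c share a stretch of 22 bases, so reads that fit both could be lost as multi-mapped, and their counts are uncertain. At 18 or 20 bases, Mir487b also shared a stretch with Mir376b, and Mir411 with Mir758. None of the members' mature sequences in RefSeq occurred whole in the hairpin of another microRNA gene, overlapping genes left out.

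The other members between 100 and 1000 CPM were Mir666 (736 and 759 CPM), Mir300 (663 and 742), Mir543 (646 and 254), Mir412 (244 and 316), Mir380 (368 and 68.6), Mir299a (283 and 116), Mir496a (256 and 122) and Mir377 (225 and 106). Below 100 CPM stood Mir410, the last gene of the cluster (107 and 64.6 CPM), Mir539 (59.0 and 98.5), Mir1193 (52.2 and 40.9), Mir679 (36.5 and 43.9) and Mir494 (21.1 and 14.2). Mir758 stood at 7.72 and 5.24 CPM. Mir544 had 25 counts in replicate 1 and 1 in replicate 2, Mir1197 had 1 and 3, and Mir654 had 0 in both, which allows the levels of a 0 count given above.

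High and low members were interspersed along the cluster. Neighbouring members differed by a median of 2.75 on the log2 scale of mean CPM (6.72-fold, 34 neighbouring pairs of the 35 members with counts), against 3.01 (8.08-fold) over all 595 pairs. The largest step between neighbours, 11.99 on that scale, was from Mir544 to Mir382. Mir1197, with a mean of 0.491 CPM, ends 71 bases before Mir323, with a mean of 1197 CPM. Across the 35 members, Spearman's rho of mean level with distance from the start of the cluster was 0.22. With the GC content of the hairpin it was 0.13, with folding energy per base −0.16 and with hairpin length −0.08. These are descriptions over genes that share the same 2 libraries.

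Grouped by gaps of at most 1000 bases, the cluster fell into 14 runs. The most abundant was the 1204-base run of Mir382, Mir134, Mir668 and Mir485, which summed to 16216 and 19410 CPM in replicates 1 and 2. The run of Mir541, Mir409, Mir412, Mir369 and Mir410 (1387 bases) summed to 12062 and 13437 CPM. These 2 runs were higher in replicate 2 as sums, although each held members higher in replicate 1. The run of Mir381, Mir487b and Mir539 (1381 bases) summed to 13127 and 3971 CPM, most of it Mir487b. The run of Mir494, Mir679 and Mir1193 was the lowest of those with several genes, at 110 and 99.0 CPM.

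**Figure D3:**
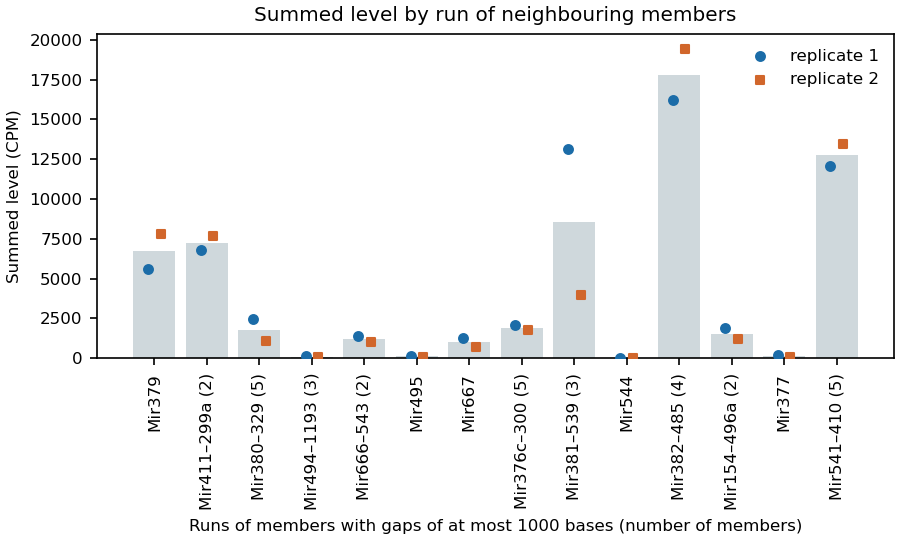
Summed CPM of each run of neighbouring members (gaps of at most 1000 bases) along the cluster, with each library's value as a point beside the mean. The run from Mir382 to Mir485 stood highest in both libraries, at 16216 and 19410 CPM, and the run from Mir381 to Mir539 differed most as a sum, at 13127 and 3971 CPM.

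Mirg, the long noncoding RNA whose transcription unit covers the end of the cluster, is annotated from 109729764 to 109749460 in M21. Of the members, 24 lie upstream of its annotated start and 12 within it. Those upstream summed to 32973 and 24237 CPM in replicates 1 and 2, and those within to 30374 and 34134 CPM. Without Mir487b the upstream members came to 20988 and 20910 CPM, nearly equal in the libraries as a sum. Single members within that sum differed in both directions, with Mir379 and Mir411 higher in replicate 2 and others, such as Mir323 and Mir381, lower. Within Mirg, Mir134, Mir485, Mir377 and Mir410 lie wholly in exons (3951 and 3885 CPM together), and Mir154, Mir496a, Mir541 and Mir409 in introns (11293 and 12638 CPM). Mir382, Mir668, Mir412 and Mir369 overlap an exon by 1 to 12 bases and summed to 15130 and 17612 CPM.

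The mature sequences of the cluster had few seeds in common. RefSeq lists 68 mature sequences for the 36 members, 2 for each of 32 genes and 1 for Mir376c, Mir487b, Mir539 and Mir485. They held 63 distinct seeds, and 5 seeds occurred in a pair of members, 9 members in all. The other arms of Mir376c, Mir487b, Mir539 and Mir485 were not among these sequences and were not compared. Besides the 3p arms of Mir379 and Mir411 printed above, the pairs were these, shown because the seed makes most of the pairing with a target site.
miR-379-5p: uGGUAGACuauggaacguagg
miR-1193-5p: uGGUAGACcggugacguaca
miR-1197-5p: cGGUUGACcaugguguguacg
miR-758-5p: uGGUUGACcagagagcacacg
miR-494-5p: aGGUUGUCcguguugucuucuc
miR-410-5p: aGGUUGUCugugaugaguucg
miR-376c-5p: gUGGAUAUuccuucuauguuua
miR-376b-5p: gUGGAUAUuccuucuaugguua
Members that share a seed could stand far apart or close in level. Mir379 had a mean of 6721 CPM and Mir1193 of 46.5 CPM, while Mir411 had a mean of 7029 CPM. The means of Mir376b and Mir376c were 133 and 286 CPM. Mir1197 and Mir758 were both below 10 CPM. In the pair of Mir494 and Mir410 the means were 17.6 and 86.0 CPM.

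Seeds were also shared with microRNAs that are not members. This held for 1 arm of each of 12 members, such as miR-329-3p (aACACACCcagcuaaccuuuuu), whose seed is that of miR-362-3p. Some of these partners lie in the same interval: Mir496a shares a seed with miR-453, and Mir299a with miR-299b, whose gene overlaps it on the opposite strand. Of the 68 mature sequences, 29 begin with U and 25 with A. A search for 6-base words found GGUUGA in mature sequences of 6 members (16.7%) and of 1 of 1022 other microRNA genes (0.0978%). GUUGCC was also in 6 members, and in 5 other genes (0.489%). ACACGG occurred in 5 members, always in the 3p arm, and in 2 other genes (0.196%). Of other words in 5 members, GGUCCA was in 2 other genes (0.196%) and ACAUGG in 21 (2.05%). These words were picked by their counts from 846 that were searched, and their presence is a description. The hairpins ranged from 61 to 121 bases and from 29.1 to 64.6% GC. Their median GC content was 43.4%, against 50.9% over all 1174 hairpins with Mir symbols.

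The libraries were then compared gene by gene. An exact binomial test, two-sided, was run on the 516 genes with 10 or more counts over both libraries. Counts were set against library sizes scaled by TMM, and p-values were adjusted by Benjamini-Hochberg over those genes. Ratios are of replicate 2 to replicate 1 on the log2 scale, with exact 95% intervals. Of 34 members tested, 11 were higher in replicate 2, where 27.5% of all genes tested were, and 19 were lower, where 30.4% were. Differences in either direction were called at 30 members, with 57.9% of all genes called. With this depth the test calls small differences, and it measures counting error in these libraries rather than variation between animals. The spread between the libraries over all genes, as a common coefficient of variation, was 43.7%.

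Members were lower in replicate 2 more than higher. Their median log2 ratio was −0.52, against −0.04 over all genes tested, while the median size of the ratio was 0.63 for members and 0.55 for all. No member was higher by 2-fold or more, a size that 10.5% of all genes tested reached. Of the 34, 9 were lower by 2-fold or more (Mir299a, Mir380, Mir329, Mir543, Mir487b, Mir544, Mir668, Mir496a and Mir377), where 15.3% of all genes were. The summed counts of the cluster had a log2 ratio of only −0.08, and 0.14 without Mir487b.

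**Figure D4:**
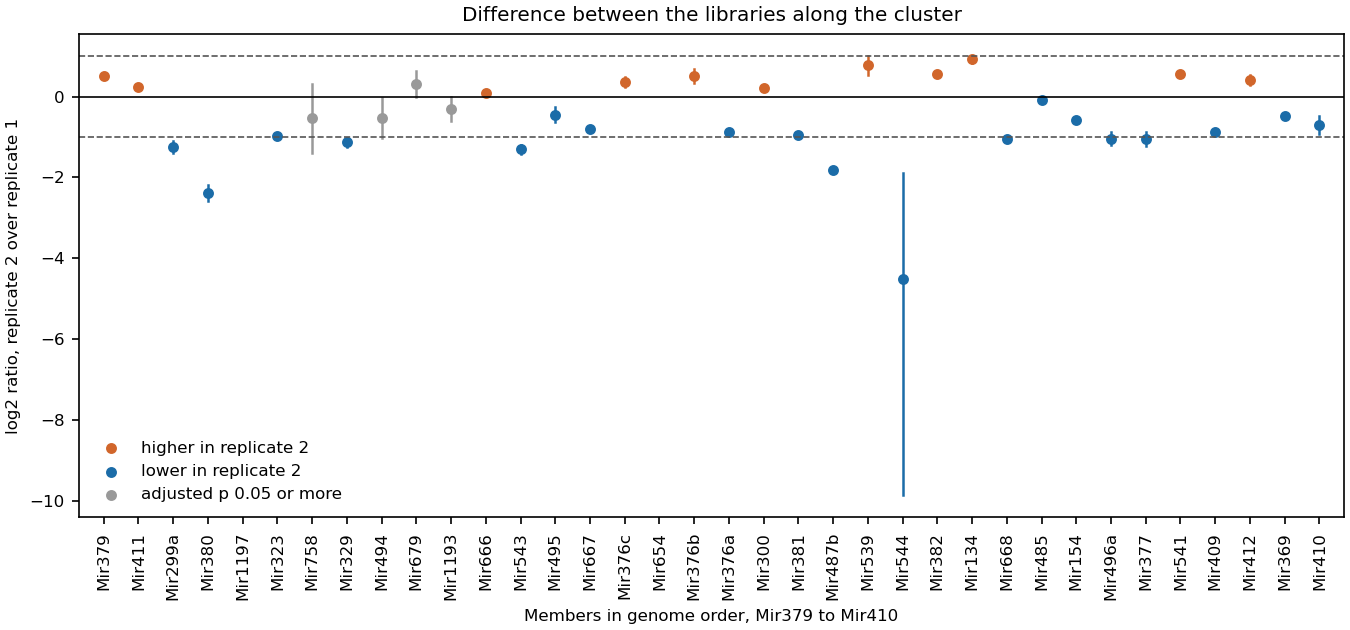
Log2 ratio of replicate 2 to replicate 1 for each tested member in genome order, with exact 95% intervals. Ratios ran from −4.51 at Mir544, with 25 and 1 counts, to 0.92 at Mir134, and both signs occurred along the cluster.

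The counts of calls were also taken by level. Of the 5 members with means of 5000 CPM or more, 4 were higher in replicate 2 and Mir487b was lower, with a median ratio of 0.52. Of the 39 genes at that level, 64.1% were higher and 35.9% lower, with a median of 0.20. All 7 members between 1000 and 5000 CPM were lower, with a median of −0.79. Of all 60 genes at that level, 46.7% were higher and 50% lower, with a median of −0.02. Mir485, 1 of the 7, was not called lower with DESeq2 size factors. Between 100 and 1000 CPM, 6 members were higher and 9 lower, with a median of −0.88. Of all 105 genes at that level, 37.1% were higher and 45.7% lower, with a median of −0.07. Of the 7 tested members below 100 CPM, 1 was higher and 2 were lower, where 16.0% of 312 genes were higher and 20.8% lower. These levels were divided after the values had been seen, and no test was made of them.

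The largest differences among members with 100 or more counts can be read from their libraries. Mir380, with 1571 and 275 counts, had a log2 ratio of −2.38 (−2.57 to −2.20; exact binomial test, adjusted p = 2.85e-194). Mir487b, at 11985 and 3327 CPM, had a ratio of −1.81 (−1.84 to −1.78). Mir543, at 646 and 254 CPM, had a ratio of −1.30 (−1.41 to −1.20; exact binomial test, adjusted p = 4.31e-149). All 3 lie upstream of Mirg. In the other direction Mir134 had a ratio of 0.92 (0.84 to 1.01; exact binomial test, adjusted p = 7.03e-101). Mir539, next to Mir487b, had a ratio of 0.78 (0.55 to 1.01; exact binomial test, adjusted p = 4.15e-11), and Mir541 one of 0.57 (0.55 to 0.59). Mir544 had a ratio of −4.51 with a wide interval, −9.87 to −1.90, since it rests on 25 and 1 counts.

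Members that stand close together often differed in direction. Of the 9 runs with at least 2 tested members, 6 held members called in both directions. Over all 34 tested members, 11 were called higher and 19 lower. No such count was made for members that lie far apart, so the values do not show whether mixed direction is particular to neighbours. In the run of Mir382, Mir134, Mir668 and Mir485 the ratios were 0.56, 0.92, −1.06 and −0.07. In the run of Mir541, Mir409, Mir412, Mir369 and Mir410 they were 0.57, −0.86, 0.41, −0.48 and −0.69. Across the 34 tested members, Spearman's rho of the ratio was 0.09 with distance from the start of the cluster and −0.08 with GC content.

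For 4 tested members no difference was called. Mir758 had a log2 ratio of −0.52 (−1.38 to 0.31; exact binomial test, adjusted p = 0.297), Mir494 of −0.53 (−1.03 to −0.03; adjusted p = 0.0539), Mir679 of 0.31 (−0.01 to 0.63; adjusted p = 0.0894) and Mir1193 of −0.31 (−0.61 to −0.01; adjusted p = 0.0617). All had means below 100 CPM, and their intervals still allow ratios of the size seen at other members. The smallest called difference was that of Mir485, at −0.07, which was not called with DESeq2 size factors (−0.03; adjusted p = 0.0925). Mir666 had a ratio of 0.09 (exact binomial test, adjusted p = 0.0356), which was no longer called when total counts were used for scaling (0.05; adjusted p = 0.305).

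The cluster was set beside the 18 plus-strand microRNA genes that precede it in the same imprinted domain, from Mir770 (109563692 to 109563785) to Mir882 (109682197 to 109682273). These summed to 72846 and 95111 CPM in replicates 1 and 2 (83979 ± 15744, SD, n = 2). The ratio of the cluster to these neighbours was 0.870 in replicate 1 and 0.614 in replicate 2. Mir127, antisense to the retrotransposon-derived gene Rtl1, gave 36025 and 53813 CPM of the neighbours' sum. Without it the ratio was 1.72 and 1.41, so whether the cluster stood above or below its neighbours turned on that gene. Of the 16 neighbours tested, 10 were higher in replicate 2, where 27.5% of all genes tested were, and 5 lower, where 30.4% were. Their median log2 ratio was 0.20, against −0.52 for the cluster and −0.04 over all genes tested. The differences between these medians were not tested.

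The libraries also differed in markers of cell types. Summed markers of neurons (5 of 5 detected) stood at 80205 and 49091 CPM in replicates 1 and 2. Those of oligodendrocytes (2 of 2) stood at 5092 and 3534 CPM, of endothelium (1 of 1) at 11394 and 10799 CPM, and of mural cells (2 of 2) at 5178 and 7691 CPM. Markers of microglia and leukocytes (3 of 4) stood at 2164 and 1989 CPM, of red cells (1 of 2) at 56.9 and 771 CPM, and of epithelia (3 of 5) at 138 and 386 CPM. Of 7 striated muscle genes 1 was detected and Mir133a-2 and Mir1a-1 were at 0. Sums for neurons, oligodendrocytes, endothelium, microglia and leukocytes, and striated muscle (72.5 and 27.9 CPM) were lower in replicate 2. Those for mural cells, red cells and epithelia were higher. The part of any of these cell types in the members' ratios was not tested.

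Strand assignment bore on 5 members. Mir299a, Mir380, Mir376a, Mir539 and Mir409 each overlap a minus-strand microRNA gene model. None of the 36 members had a read on the opposite strand, and the 5 minus-strand models had 0 counts. In the unstranded column, where a read over overlapping genes is ambiguous, these 5 members were listed at 0.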

How the data were processed

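MicroRNA-seq was analysed in 2 libraries of 1 group. The authors deposited read counts, whole numbers, for each microRNA gene, 1 table per library, made with mm10 and GENCODE M21 as the deposited text files state. Aligner and counter are not given in the sources. Without a header, the 3 count columns were read as unstranded, own-strand and opposite-strand, and the own-strand column was used. The 4 leading entries, which name no gene, stayed out of totals and tests. They include multi-mapped reads (42.8% and 39.9% of 11886775 and 11534730 reads) and unmapped reads (16.7% and 20.9%), and 36.0% and 34.8% of reads were assigned. Gene counts thus lack the reads that mapped to several places.

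All gene identifiers matched GENCODE M21. CPM was computed over own-strand counts. TMM sizes were taken from genes with 10 or more counts (edgeR 4.0.16, R 4.3.3), and DESeq2 1.42.0 size factors, total counts, other minimums and the unstranded column were alternatives. The binomial test compares the libraries and covers counting error only; no quasi-likelihood test was possible, since 1 group leaves no contrast. The threshold was an adjusted p of 0.05. PCR copies could not be told from separate molecules. Hairpins from the GENCODE transcripts were folded with RNAfold 2.7.2, and stretches of 22 bases shared between loci were sought among annotated microRNA genes, in place of a planned search of the genome, which was not used here. Statistics were computed with SciPy 1.17.1 and pandas 2.3.3 in Python 3.11.15, and the scripts were tested on simulated data. The members, the lists and the tests were chosen with earlier results of these data known. Every member was named, with full statistics for the 3 largest ratios in each direction at 100 or more counts. Other statistics were given for members whose calls changed with a setting or were missing.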

Additional observations from a re-analysis of the deposited data

Results flagged for a closer look

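Mir3072 lies inside the interval that defines the cluster but was not among the members. Its level was 139.9 CPM (replicate 1) and 118.4 CPM (replicate 2), above the level that a count of 0 allows, and it was picked out because the counts of members leave it out. In the comparison of the libraries over all genes its log2 ratio was −0.20 (−0.38 to −0.02; exact binomial test, adjusted p = 0.0450). Mir453, in the same interval, had 0 counts in both libraries. Multi-mapped reads, which no gene count holds, came to 42.8 and 39.9% of the reads of replicates 1 and 2. They were picked out because no comparison used them, and which genes they came from was not tested.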

How the results depend on the processing

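With DESeq2 size factors, total counts, other minimum counts or the unstranded column, 9 to 11 members were higher and 17 to 21 lower in replicate 2, and the median log2 ratio lay between −0.56 and −0.49. The 9 members beyond 2-fold became 17 at a limit of 1.5 and 3 at a limit of 3. The share of the cluster, 6.09%, was 2.15% of all reads, 6.83% without the most abundant gene in the total and 5.32% without Mir487b, and single libraries gave 5.84 to 6.33. The median level was 305 CPM in the unstranded column and 142 when scaled to all reads, and single libraries gave 317 to 438. The ratio to the upstream genes, 0.742, crossed 1 without Mir127 (1.57), and single libraries gave 0.614 to 0.870. Each library alone had 32 members detected. At stretches of 18 or 20 bases, 5 members shared one with another locus, against 2 at 22, and gaps of up to 2000 bases left 5 runs in place of 14. With total counts Mir494 (adjusted p = 0.0364, exact binomial test) and Mir1193 (0.0339) were called, as they were with TMM over all genes (0.0449 and 0.0495), where Mir666 was not (0.113). With DESeq2 size factors Mir485 was not called (0.0925). TMM over all genes, the share without Mir487b and the addition of Mir453 and Mir3072 were added after the data were seen. The log2 ratio of the cluster's summed counts went from −0.08 to 0.14 without Mir487b. The median log2 ratio of the members and the ratios of single members kept their sign under the scalings run. No paired analysis was possible because there is 1 group. Counts of 1 to 25 limit Mir544 and Mir1197.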
